A study of Mus musculus with 5 samples.

Results

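The cytotoxic effector genes of lymphocytes described here are Prf1, Gzma, Gzmb, Gzmk, Nkg7, Ctsw, Fasl, Ifng, Klrd1 and Klrk1, 10 genes matched by symbol among 55450 annotated genes. All 10 were present in each of the 5 libraries. They were read in 636 CD8 cells, 757 CD4 cells and 98 NK-marker cells, out of 55321 cells that passed quality filters. The cells came from cortex of C57BL/6J mice and were profiled by droplet single-cell RNA-seq, which counts unique molecular identifiers (UMIs, 1 per captured RNA molecule). A single library was made after a sham operation. The other 4 came from the injury site 1, 3, 7 and 14 days after a traumatic brain injury, again 1 for each day. The sham title names no site, and the number, sex and age of the mice in a library are not given in the sources used here. No transgene or drug is named for any group. Each condition is thus a single library, so no difference between days has a replicate check, and every interval below covers counting error only.

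Cytotoxic lymphocytes kill by releasing granules onto a target cell. Perforin forms pores in the target membrane, and granzymes, which are serine proteases, enter through them and start cell death. A second route uses Fas ligand, which binds the death receptor Fas, and the same cells secrete interferon gamma, a cytokine that activates macrophages and microglia. Receptors of the killer lectin family take part in deciding whether the granules are released. CD8 T cells and natural killer (NK) cells are the classical carriers of this machinery, and both can enter injured brain tissue.

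Gated cells were few before day 3. CD8 cells numbered 3 in sham, 3 at day 1, 42 at day 3, 124 at day 7 and 464 at day 14. CD4 cells numbered 0, 1, 8, 91 and 657 in the same order. NK-marker cells numbered 3, 12, 22, 20 and 41. As a share of kept cells, CD8 cells made up 1.04% at day 7 (95% exact binomial interval 0.863 to 1.24) and 4.02% at day 14 (3.67 to 4.39). CD4 cells made up 0.761% (0.613 to 0.933) and 5.69% (5.28 to 6.13) on those days. Median UMIs per cell at days 7 and 14 were 6081 and 4880 in CD8 cells, 5311 and 4898 in CD4 cells, and 5880 and 4688 in NK-marker cells.

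A CD8 cell had a UMI of Cd8a or Cd8b1 and of a CD3 chain, and none of Cd4. A CD4 cell had the reverse. An NK-marker cell had UMIs of at least 2 of 9 NK receptor genes and none of a CD3 chain, Cd8b1 or Cd4. None of the 10 genes entered a gate. All 8 T cell markers were detected in the CD8 and CD4 sums from day 3 on. Of the day 14 cells, 95.3% of CD8, 89.0% of CD4 and 78.0% of NK-marker cells fell in the T cell cluster of an unsupervised clustering. Another 14 CD8 cells, 57 CD4 cells and 6 NK-marker cells of day 14 fell in a cluster led by MHC class II genes. Class levels include them unless the T cell cluster is named. The day 14 CD8 sum also held 7324 UMIs of the antibody gene Ighm (2545 CPM), and its part in the results below was not tested. Summed monocyte and macrophage markers were at 1940 to 3671 CPM in the CD8 and CD4 sums of days 7 and 14. Sequencing was uneven, with 11279455 UMIs in sham and 129161094 at day 14. Pairs of libraries shared 27 to 59 cell barcodes, none of them in gated cells.

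The regions just upstream of perforin and the 3 granzymes are shown because the class differences and the contrast between Gzma and Gzmk described below turn on these genes. They come from RefSeq (GRCm38.p6), run 5′ to 3′ on the gene's strand, and end at the base before the annotated start site. Capitals mark matches to 3 short motifs that were searched on both strands: TGTGGT, the core of RUNX sites; GGTGTGA, a T-box core; and TGANTCA, the AP-1 motif.

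Prf1, chr10:61297586-61297835, plus strand: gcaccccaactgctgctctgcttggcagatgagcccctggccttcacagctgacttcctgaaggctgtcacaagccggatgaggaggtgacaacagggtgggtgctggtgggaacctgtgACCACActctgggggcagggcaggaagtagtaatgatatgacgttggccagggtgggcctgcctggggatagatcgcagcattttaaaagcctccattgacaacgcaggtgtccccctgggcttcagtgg

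Gzma, chr13:113100982-113101231, minus strand: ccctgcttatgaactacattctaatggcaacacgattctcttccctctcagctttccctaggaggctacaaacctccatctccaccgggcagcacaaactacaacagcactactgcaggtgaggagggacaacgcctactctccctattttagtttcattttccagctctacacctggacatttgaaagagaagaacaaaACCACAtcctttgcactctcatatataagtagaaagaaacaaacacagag

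Gzmb, chr14:56262335-56262584, minus strand: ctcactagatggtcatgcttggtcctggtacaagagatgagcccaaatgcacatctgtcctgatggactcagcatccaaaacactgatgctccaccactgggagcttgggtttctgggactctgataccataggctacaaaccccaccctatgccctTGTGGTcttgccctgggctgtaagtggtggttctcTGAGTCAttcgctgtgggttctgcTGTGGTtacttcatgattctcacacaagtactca

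Gzmk, chr13:113180966-113181215, minus strand: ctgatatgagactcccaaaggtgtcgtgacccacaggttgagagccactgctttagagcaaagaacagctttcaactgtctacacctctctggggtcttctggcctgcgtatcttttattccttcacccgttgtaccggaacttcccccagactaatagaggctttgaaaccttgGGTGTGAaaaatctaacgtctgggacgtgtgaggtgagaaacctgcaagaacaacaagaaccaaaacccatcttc

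The RUNX core lay at position -130 from the start site in Prf1, at -50 in Gzma, and at -93 and -34 in Gzmb. The Gzmb window also held an AP-1 match at -58. Gzmk had no RUNX core in its window and a T-box match at -75. That window is placed by the RefSeq start and lies inside the Gzmk span given below, which is from GENCODE. The annotations thus place the start of Gzmk differently. They also differ for Gzmb, Nkg7 and, by a few bases, Prf1, and all motif positions here count from the RefSeq start. The table held promoters for 8 of the 10 genes, all but Ctsw and Klrd1. Within 300 bases (250 before to 50 after the start), the RUNX core was found in 5 of the 8, including Nkg7 at -83 and Klrk1 at -129. It was found in 16.8% of 32851 promoters of the same length. The T-box core was in 2 of the 8 (Gzmk and Nkg7) against 3.98% of promoters, and the AP-1 motif in 2 of the 8 (Gzmb and Klrk1) against 7.81%. No motif was found in the Fasl and Ifng windows, which says nothing about their control. No matches overlapped.

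For each class and library the UMIs of all cells were added up, and a gene's level is its UMIs as a proportion of that sum, on the CPM scale. The method captures RNA ends, so levels are compared between cells and not between genes. At day 14 at least 1 of the 10 genes was detected in 456 of 464 CD8 cells, 541 of 657 CD4 cells and 41 of 41 NK-marker cells.

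**Figure D1:**
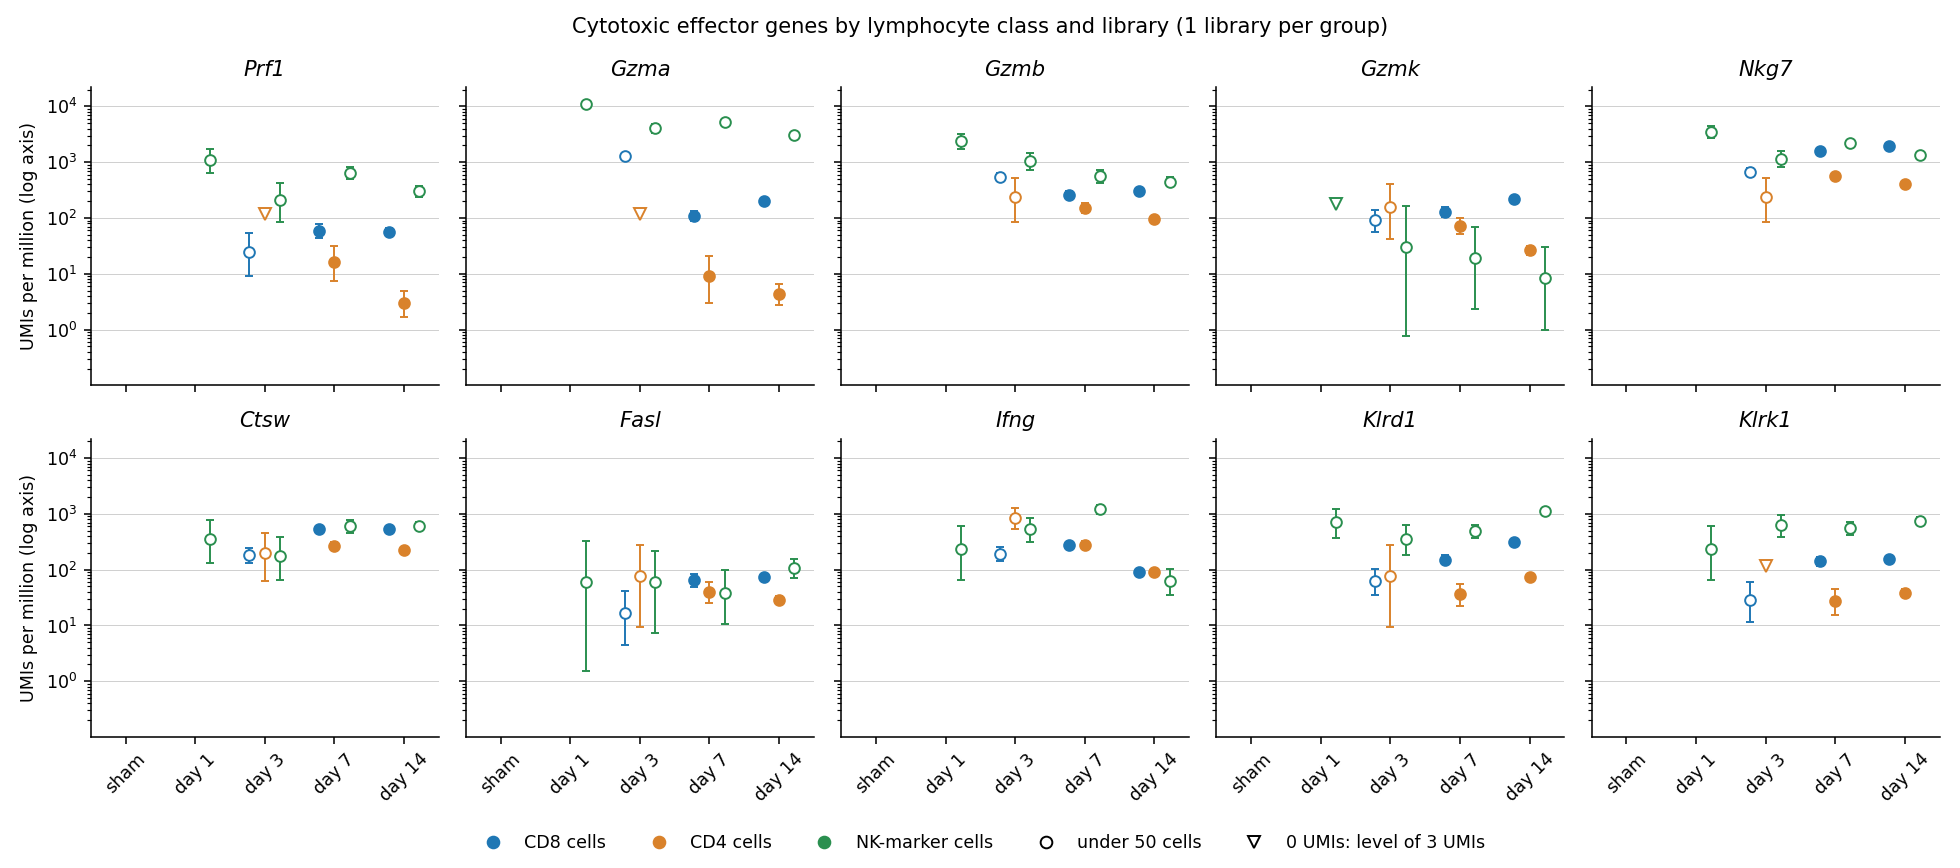
Level of each of the 10 genes in CD8, CD4 and NK-marker cells by library, as CPM of summed UMIs on a log axis. Points are library sums and bars are exact 95% Poisson intervals, which cover counting error only; open points are sums of fewer than 50 cells and triangles mark the level of 3 UMIs where none was found. Sums of fewer than 8 cells, sham among them, are not drawn; the highest Gzma and Prf1 levels belong to NK-marker cells.

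Perforin and granzyme A stood highest in NK-marker cells, lower in CD8 cells and lowest in CD4 cells. Prf1 (GRCm38 chr10:61297833-61304680, plus strand) encodes the pore-forming protein itself. In CD8 cells Prf1 stood at 24.7 CPM at day 3, 58.0 at day 7 and 55.6 at day 14. In CD4 cells it stood at 16.3 CPM at day 7 (9 UMIs) and 2.97 at day 14 (15 UMIs). In NK-marker cells it stood at 208 CPM at day 3, 653 at day 7 and 301 at day 14. The classes thus kept 1 order at days 7 and 14, with NK-marker cells highest and CD4 cells lowest.

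Gzma (chr13:113093825-113100981, minus strand) encodes granzyme A, a protease of tryptic specificity. NK-marker cells held 4051 CPM at day 3, 5157 at day 7 and 3084 at day 14. CD8 cells held 1316 CPM at day 3, 110 at day 7 and 205 at day 14. CD4 cells held 9.04 CPM at day 7 (5 UMIs) and 4.36 at day 14 (22 UMIs). In microglia, which should lack the gene, Gzma was at 0.637 CPM at day 7 and 0.309 at day 14, so the CD4 values lay above that level of stray RNA.

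Differences between classes were tested with edgeR's quasi-likelihood test on the 6 sums of days 7 and 14, the libraries with at least 20 cells of each class. The library was a block, which left 2 residual degrees of freedom. p-values were Benjamini-Hochberg adjusted over 7908 genes, and a gene was called at an adjusted p under 0.05. Because classes of 1 library share an animal source and preparation, these p-values measure how similar the class difference was in 2 libraries.

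Between CD8 and CD4 cells, 6 of the 10 genes passed the test, all higher in CD8 cells, against 0.316% of all genes tested that were higher, 0.24% that were lower and 0.556% in either direction. Gzma was higher by 4.98 (log2, SE 0.46, adjusted p = 0.0019) and Prf1 by 3.41 (SE 0.47, adjusted p = 0.0175). The others were Nkg7, Ctsw, Klrd1 and Klrk1. The median log2 difference over the 10 genes was 2.02, beside -0.01 over all genes tested. Without the library block only Gzma of these 6 passed.

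Between NK-marker and CD8 cells, 4 of the 10 passed, all higher in NK-marker cells, against 1.14% of all genes higher, 0.594% lower and 1.73% in either direction. Gzma was higher by 4.65 (log2, SE 0.36, adjusted p = 0.000434) and Prf1 by 2.88 (SE 0.36, adjusted p = 0.0048). Klrd1 and Klrk1 were the other 2. Without the block only Gzma and Klrk1 passed. Between NK-marker and CD4 cells, 7 of the 10 passed, all higher, against 1.28% of all genes higher, 0.923% lower and 2.2% in either direction. Gzma was higher by 9.63 (SE 0.49, adjusted p = 3.04e-05) and Prf1 by 6.29 (SE 0.47, adjusted p = 0.000206). The 3 contrasts share sums, so their counts are not independent of each other.

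**Figure D2:**
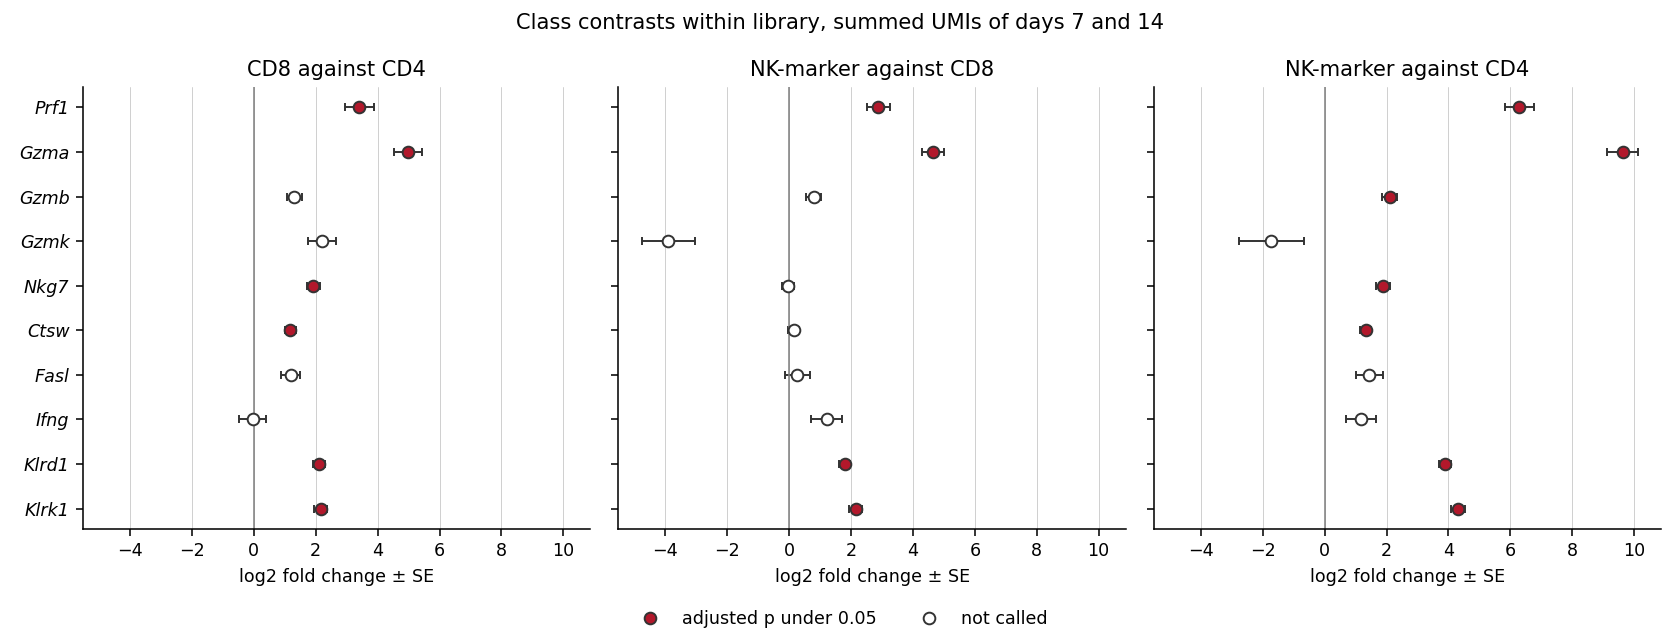
Log2 fold change of the 10 genes between pairs of classes from edgeR's quasi-likelihood fit on days 7 and 14, with bars of 1 standard error. Filled and open points separate genes past the adjusted p threshold of 0.05 from the rest; Gzma and Prf1 lie far to the positive side in all 3 contrasts and Ifng lies near 0 between CD8 and CD4 cells.

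Gzmb had the same order of levels with smaller differences, and Gzmk had another order. Gzmb (chr14:56258838-56262260, minus strand) encodes granzyme B, which cleaves caspases and other proteins after aspartate. In CD8 cells Gzmb stood at 551 CPM at day 3, 263 at day 7 and 310 at day 14. CD4 cells held 152 CPM at day 7 and 96.1 at day 14. NK-marker cells held 1042 CPM at day 3, 567 at day 7 and 449 at day 14. Its CD8 to CD4 difference of 1.31 (log2, SE 0.23) narrowly missed the threshold in edgeR (adjusted p = 0.0563) and passed with DESeq2 (adjusted p = 0.0242). Its NK-marker to CD8 difference of 0.79 (SE 0.24) did not pass (edgeR, adjusted p = 0.185). It passed when NK-marker cells needed 3 NK genes (1.13, adjusted p = 0.0340) and inside the T cell cluster (0.97, adjusted p = 0.00664).

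Gzmk (chr13:113171608-113225908, minus strand) encodes granzyme K and lies 70.6 kb from Gzma with no protein-coding gene between them. In CD8 cells Gzmk stood at 90.5 CPM at day 3, 129 at day 7 and 219 at day 14. CD4 cells held 72.3 CPM at day 7 and 26.3 at day 14. NK-marker cells held 1 UMI of Gzmk at day 3, 2 at day 7 and 2 at day 14, beside 136, 537 and 749 UMIs of Gzma. The neighbouring granzymes thus had opposite places in CD8 and NK-marker cells: at day 14 the NK-marker to CD8 log2 ratio was 3.91 for Gzma (95% interval 3.75 to 4.07) and -4.73 for Gzmk (-7.78 to -2.88). The Gzmk difference of -3.92 (SE 0.86) missed the threshold in edgeR on days 7 and 14 (adjusted p = 0.0711). With day 3 added it passed (-3.63, SE 0.57, adjusted p = 0.000253), and it passed with DESeq2 (adjusted p = 0.00482). The CD8 to CD4 difference of Gzmk was 0.83 (log2, 0.30 to 1.39) at day 7 and 3.06 (2.79 to 3.34) at day 14, and it did not pass over both days (edgeR, adjusted p = 0.101).

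Granzyme RNA was spread unevenly among cells. Gzma was detected in 61.9% of CD8 cells at day 3, 14.5% at day 7 and 12.1% at day 14. The 5 richest CD8 cells held 76.8% of the class's Gzma UMIs at day 7 and 48.6% at day 14, so its CD8 level rests on few cells. Gzmk was detected in 55.6% of CD8 cells at day 7 and 56.0% at day 14, and its 5 richest cells held 9.19% of its UMIs at day 14. Prf1 was detected in 28.2% and 28.4% of CD8 cells on those days. After each cell was thinned to 500 UMIs to equalise depth, Gzma was detected in 23.8% (12.1 to 39.5) of CD8 cells at day 3 and 2.42% (0.502 to 6.91) at day 7. Thinned microglia showed Gzma in 0.161% of cells at day 7.

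Within CD8 cells of day 14, granzymes A and B were often detected in the same cell. Of 56 cells with Gzma and 157 with Gzmb, 39 had both, where independent detection at these shares gives 18.9. Gzma and Gzmk were found together in 41 cells (31.4 if independent), and Gzmk and Prf1 in 83 (74.0 if independent). With each cell thinned to 1000 UMIs, Gzma and Gzmb were together in 15 cells (4.54 if independent), while Gzma and Gzmk were together in 6 (5.96) and Gzmk and Prf1 in 8 (6.95). Cells with both Gzma and Gzmb had a median of 5330 UMIs and cells with neither had 4790, so depth differed between them as well. At day 7, 15 of the 18 Gzma-positive CD8 cells had Gzmb (8.71 if independent).

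NK-marker cells of day 14 differed in whether Gzma, Prf1 and Gzmb were detected. Gzma was detected in 19 of the 41, and 16 of those 19 also had Prf1 and 15 had Gzmb. Of the 22 cells without Gzma, 4 had Prf1 and 2 had Gzmb. At day 7, Gzma was detected in 15 of 20 NK-marker cells, and 14 of those 15 had Prf1. Klrk1 was detected in 97.6% and Klrd1 in 95.1% of the NK-marker cells of day 14, more cells than had Gzma, Prf1 or Gzmb. The 32 cells inside the T cell cluster held 748 of the 749 Gzma UMIs and 178 of the 273 Klrd1 UMIs, and the part of the 9 outside it in this difference was not tested. Median depth was 4290.5 UMIs in cells with both Gzma and Prf1 and 5360.5 in cells with neither.

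In CD4 cells, granzyme B was concentrated in cells with the regulatory T cell gene Foxp3. At day 14, 78 CD4 cells had a Foxp3 UMI and 579 did not. Gzmb stood at 301 CPM with Foxp3 and 48.3 CPM without, a 6.24-fold difference (log2 2.64, 95% interval 2.37 to 2.91, counting error only). It was detected in 61.5% of cells with Foxp3 and 11.2% of cells without. Gzmk, Nkg7 and Ifng lay in the other direction. Gzmk stood at 13.7 CPM with Foxp3 and 29.3 without, Nkg7 at 206 and 452, and Ifng at 45.2 and 104. Prf1 had 5 UMIs in the Foxp3 cells and 10 in the rest, and Gzma 0 and 22. Cells with Foxp3 were deeper, with a median of 9889 UMIs against 4673; the part of depth in the Gzmb detection was not tested, and CPM divides by it. None of the 91 CD4 cells of day 7 had a Foxp3 UMI. At their depth (median 5311 UMIs) a count of 0 allows 3.30% of cells with a UMI (3 counts), and it sets no limit on cells that express the gene.

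Nkg7 and Ctsw, 2 other proteins of killer cells, were widely detected in CD8 cells. Nkg7 (chr7:43437073-43438249, plus strand) encodes a granule membrane protein needed for efficient granule release. In CD8 cells Nkg7 stood at 662 CPM at day 3, 1583.5 at day 7 and 1914 at day 14. In CD4 cells it stood at 555 CPM at day 7 and 405 at day 14, and in NK-marker cells at 2180 and 1359. It was higher in CD8 than in CD4 cells by 1.93 (log2, SE 0.21, edgeR adjusted p = 0.00479). Between NK-marker and CD8 cells the difference was -0.04 (SE 0.21, adjusted p = 0.973), and its sign changed with the gate and with day 3 included. Nkg7 was detected in 95.2% of CD8 cells at day 7 and 95.7% at day 14.

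Ctsw (chr19:5465043-5468507, minus strand) encodes cathepsin W, a cysteine protease of CD8 T and NK cells. In CD8 cells Ctsw stood at 181 CPM at day 3, 541 at day 7 and 545 at day 14. Levels at days 7 and 14 were 267 and 224 CPM in CD4 cells and 595 and 605 CPM in NK-marker cells. It was higher in CD8 than in CD4 cells by 1.18 (log2, SE 0.17, edgeR adjusted p = 0.0217). Between NK-marker and CD8 cells it differed by 0.15 (SE 0.18, adjusted p = 0.780). Ctsw shares 9 exonic bases with Fibp on the other strand, and the part of such reads was not tested.

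Fas ligand and interferon gamma, a surface and a secreted effector, passed in no contrast between classes over the 6 sums, and in some under other gates and filters. Fasl (chr1:161780689-161788495, minus strand) stood at 16.4 CPM at day 3, 65.0 at day 7 and 73.3 at day 14 in CD8 cells. CD4 cells held 39.8 and 28.7 CPM at days 7 and 14. In NK-marker cells it stood at 38.4 CPM at day 7 (4 UMIs) and 107 at day 14 (26 UMIs). No Fasl contrast passed the test, with log2 differences of 1.19 between CD8 and CD4 (SE 0.31, edgeR adjusted p = 0.279) and 1.45 between NK-marker and CD4 (SE 0.43, adjusted p = 0.189). Inside the T cell cluster, with sums of at least 10 cells, both passed, at 1.18 (adjusted p = 0.00744) and 1.70 (adjusted p = 0.00992), and both passed with no expression filter.

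Ifng (chr10:118441046-118445892, plus strand) stood at 278 CPM in CD8 cells and 282 in CD4 cells at day 7. At day 14 it stood at 89.3 CPM in CD8 cells and 92.7 in CD4 cells. The CD8 to CD4 log2 ratio was -0.02 (95% interval -0.31 to 0.28) at day 7 and -0.05 (-0.28 to 0.17) at day 14. Over both days the fitted difference was -0.03 (SE 0.43, edgeR adjusted p = 1.00). The NK-marker to CD8 difference of 1.21 (SE 0.49, adjusted p = 0.338) did not pass, but did inside the T cell cluster (1.32, adjusted p = 0.00619) and with no expression filter (1.09, adjusted p = 0.000232). NK-marker cells held 1200 CPM at day 7 (125 UMIs) and 61.8 at day 14 (15 UMIs), above CD8 cells on the first day and with intervals that overlap theirs on the second. At day 3 CD8 cells held 193 CPM, NK-marker cells 536, and the 8 CD4 cells 859 (22 UMIs). A gene annotated on the same strand, Gm49751, covers 336 of the 1295 exonic bases of Ifng, and reads there could be assigned to either.

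The receptors Klrd1 and Klrk1 lie 11.5 kb apart with no protein-coding gene between them. Klrd1 (chr6:129591782-129598775, plus strand) encodes CD94, the partner of NKG2 chains that bind Qa-1. In CD8 cells Klrd1 stood at 61.7 CPM at day 3, 152 at day 7 and 312 at day 14. In NK-marker cells it stood at 357, 490 and 1124 CPM on those days. In CD4 cells it stood at 36.1 CPM at day 7 and 74.7 at day 14. It was higher in CD8 than CD4 cells by 2.10 (log2, SE 0.19, edgeR adjusted p = 0.0015) and in NK-marker than CD8 cells by 1.79 (SE 0.18, adjusted p = 0.00152).

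Klrk1 (chr6:129610323-129623864, minus strand) encodes NKG2D, an activating receptor for stress-induced ligands. In CD8 cells Klrk1 stood at 28.8 CPM at day 3, 143 at day 7 and 153 at day 14. NK-marker cells held 625, 557 and 745 CPM. The CD4 sums held 27.1 CPM at day 7 and 38.8 at day 14. It was higher in CD8 than CD4 cells by 2.16 (log2, SE 0.21, edgeR adjusted p = 0.00237) and in NK-marker than CD8 cells by 2.14 (SE 0.20, adjusted p = 0.00104).

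The CD4 values of both receptors depended on cells outside the T cell cluster. Inside that cluster, CD4 cells held 12.9 CPM of Klrd1 at day 7 (6 UMIs) and 24.1 at day 14 (86 UMIs of the 377 in the class). Klrk1 stood at 21.4 and 30.6 CPM there. The 57 CD4-gated cells of day 14 in the MHC class II-led cluster lie outside it.

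Klrd1 and Klrk1 were also the genes least restricted to lymphocytes. At day 14, gated cells, other CD3-positive cells and the T cell cluster together held 94.7% to 98.4% of the UMIs of the other 8 genes. They held 59.0% of the 3739 Klrd1 UMIs and 59.4% of the 2134 Klrk1 UMIs. The MHC class II-led cluster held 31.6% of Klrd1 and 25.8% of Klrk1, and dendritic cells 6.0% and 9.8%. Within that cluster at day 14, Klrd1 stood at 421 CPM in the 128 cells with a UMI of the dendritic cell gene Cd209a and 89.9 CPM in the 532 cells without. Cells with the dendritic cell gene Flt3 held 363 CPM of Klrd1 and cells without held 81.1. The 78 cells with Xcr1 or Clec9a, genes of another dendritic cell type, gave no clear direction. They held 133 CPM of Klrd1 (95% Poisson interval 111 to 157). The cells without, which include cells with Cd209a, held 163 CPM (153 to 173). Klrd1 was detected in 50% of the cells with Xcr1 or Clec9a and in 30.8% of those without. Such shares depend on depth, and its part was not tested. In microglia of the same library Klrd1 was at 1.83 CPM, far below all of these levels.

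**Figure D3:**
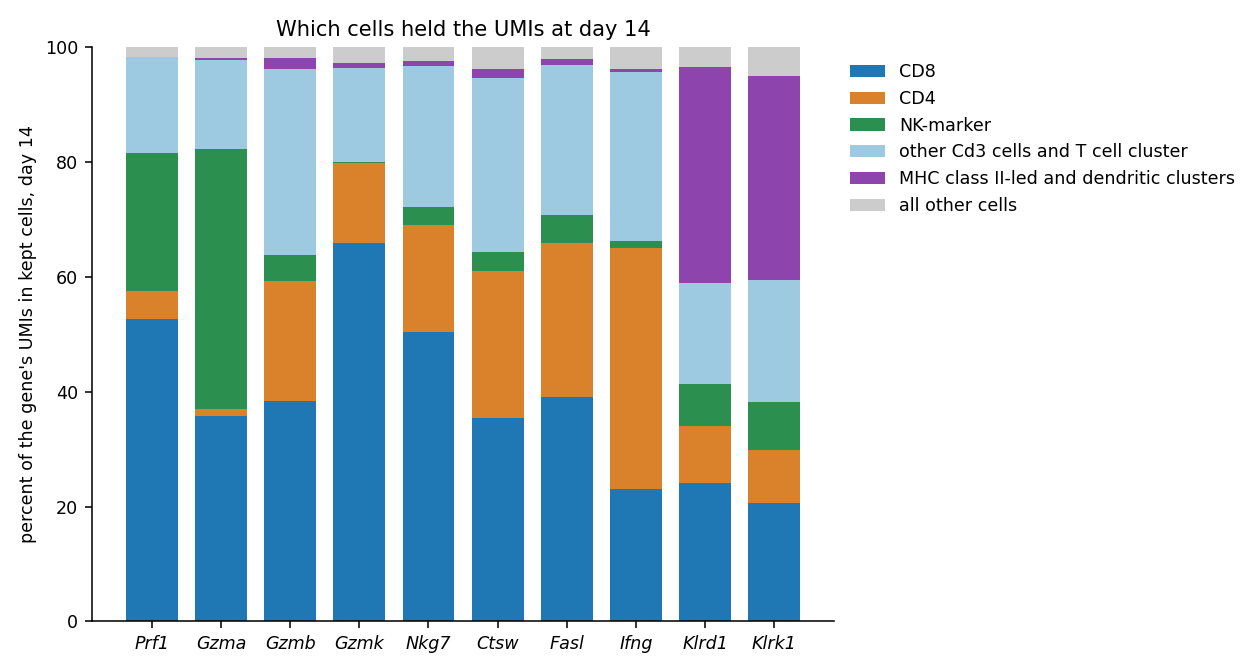
Share of each gene's UMIs at day 14 by the class or cluster of the cells that held them, in percent of the UMIs in kept cells. Klrd1 and Klrk1 differ from the other 8 genes in the share held by the MHC class II-led cluster.

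The same genes were then compared between days 7 and 14 within each class. No test was possible with 1 library a day, and ratios carry counting intervals only. In CD8 cells, 1 of the 10 genes was at least 2-fold higher at day 14 and 1 at least 2-fold lower, where 3.69% and 7.13% of all genes were. In CD4 cells 1 was higher and 4 were lower, against 6.02% and 7.56% of all genes; 2 of these 4, Prf1 and Gzma, averaged under the 10 CPM that the background required. In NK-marker cells, with 20 cells at day 7 and 41 at day 14, the 9 genes other than Gzmk had at least 3 UMIs on both days. Of these 9, 2 were higher and 2 lower, against 19.4% and 19.0% of all genes. Gzmk, with 2 UMIs on each day, had a log2 ratio of -1.22 with an interval from -5.01 to 2.56. Median log2 ratios were 0.20 in CD8 cells, -0.56 in CD4 cells and, over those 9 genes, -0.34 in NK-marker cells, beside 0.00, -0.00 and -0.05 over all genes. The log2 TMM factors of day 14 over day 7 were -0.08 in CD8, -0.13 in CD4 and -0.17 in NK-marker cells, and TMM scaling subtracts them, which makes every ratio higher by that amount. Among CD8 ratios only that of Prf1 changed sign, from -0.06 to 0.02.

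Ifng was lower at day 14 in each class. The log2 ratio was -1.64 in CD8 cells (95% interval -1.90 to -1.38), -1.60 in CD4 cells (-1.87 to -1.33) and -4.28 in NK-marker cells (-5.16 to -3.50). The share of CD8 cells with an Ifng UMI was 51.6% at day 7 and 29.1% at day 14, and in cells thinned to 500 UMIs 12.9% and 6.03%. Summed levels of 8 immediate early genes moved the same way, from 4318 to 1886 CPM in CD8, 4986 to 2796 in CD4 and 6184 to 4208 in NK-marker cells. The list (Dusp1, Egr1, Fos, Fosb, Ier2, Jun, Junb and Nr4a1) was picked with the data in view. Its part in the Ifng values was not tested.

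Klrd1 was higher at day 14 in each class, by a log2 ratio of 1.04 in CD8 cells (0.77 to 1.31), 1.05 in CD4 cells (0.40 to 1.77) and 1.20 in NK-marker cells (0.76 to 1.66). Klrk1 had a log2 ratio of 0.10 in CD8 cells (-0.19 to 0.40), 0.52 in CD4 cells (-0.24 to 1.38) and 0.42 in NK-marker cells (-0.01 to 0.87), intervals that all include 0.

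Granzyme ratios differed in direction between the T cell classes. In CD8 cells the log2 ratio was 0.77 for Gzmk (0.47 to 1.07), 0.90 for Gzma (0.58 to 1.22) and 0.23 for Gzmb (0.02 to 0.45). In CD4 cells it was -1.46 for Gzmk (-1.98 to -0.91) and -0.66 for Gzmb (-0.997 to -0.308). The share of cells with a Gzmb UMI was lower at day 14 in both classes. It was 60 of 124 and 157 of 464 CD8 cells at days 7 and 14, and 26 of 91 and 113 of 657 CD4 cells. After thinning to 500 UMIs, 15 and 41 of these CD8 cells and 7 and 28 of these CD4 cells had one. The CD8 level of Gzma rests on few cells, and its counting interval does not cover differences between cells. Gzma in CD4 cells gave -1.05 on 5 and 22 UMIs, with an interval that includes 0 (-2.49 to 0.71). Prf1 gave -0.06 in CD8 cells, with an interval that includes 0 (-0.53 to 0.43), and was lower at day 14 in CD4 cells, at -2.45 (-3.74 to -1.08). Nkg7 gave 0.27 (0.19 to 0.36) in CD8 cells and -0.45 (-0.63 to -0.28) in CD4 cells. Markers of other cell types also differed between these sums. From day 7 to day 14, 12 astrocyte markers, all detected, summed to 2123 and 384 CPM in CD8 cells and to 3540 and 84.4 in CD4 cells. The 10 oligodendrocyte markers, all detected, summed to 5092 and 1202 CPM in CD8 and 1442 and 2246 in CD4 cells. In CD4 cells the 8 neutrophil markers summed to 802 CPM at day 7 (6 detected) and 35.1 at day 14 (7 detected). In CD8 cells the 6 B cell markers summed to 82.4 CPM at day 7 (2 detected) and 2572 at day 14 (5 detected). The part of these cells' RNA in the ratios was not tested.

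In NK-marker cells Gzma gave a log2 ratio of -0.74 (-0.90 to -0.58), Prf1 -1.12 (-1.62 to -0.62) and Nkg7 -0.68 (-0.93 to -0.43). These depended on cells outside the T cell cluster, 9 at day 14 and 1 at day 7. With only the 32 and 19 cells inside it, Gzma was at 5365 CPM at day 14 and 4751 at day 7, and the ratio changed sign to 0.18. Prf1 was then at 509 and 563 CPM, and Nkg7 at 2166 and 2140. Gzmb was at 782 CPM at day 14 and 522 at day 7 there, a log2 ratio of 0.58 against -0.34 in the whole class. Ctsw was at 997 and 614 CPM and Fasl at 179 and 41.0. Astrocyte markers in the whole NK-marker class summed to 1133 CPM at day 7 (11 of 12 detected) and 103 at day 14 (9 of 12). Oligodendrocyte markers summed to 2602 CPM at day 7 (9 of 10 detected) and 630 at day 14 (10 of 10). Summed levels of 14 monocyte and macrophage markers in the whole NK-marker class were 634 CPM at day 7 (6 detected) and 1589 at day 14 (11 detected), and the part of these markers' cells was not tested.

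The day 3 library held 42 CD8 cells, fewer than the 50 set for such ratios, and its values are set beside those of day 7 as a description. Gzma stood 11.9-fold higher at day 3 than at day 7 (log2 ratio of day 7 over day 3 -3.58, 95% interval -3.92 to -3.24). The 5 richest cells held 55.9% of the day 3 UMIs. Gzmb was also higher at day 3 (-1.07, -1.38 to -0.75). The other 8 genes were higher at day 7, from 0.51 for Gzmk (-0.16 to 1.24) to 2.31 for Klrk1 (1.22 to 3.65). In all, 6 genes were at least 2-fold higher at day 7 and 2 lower, where 16.3% and 16.4% of all genes were.

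Earlier NK-marker cells were too few for ratios. The 3 in sham held 32 Gzma UMIs and 3 Prf1 UMIs, and each had Gzma. The 12 at day 1 stood at 10901 CPM of Gzma and 2383 CPM of Gzmb. The 3 sham CD8 cells held 5 Nkg7 UMIs, 1 Gzmk UMI and none of the other 8 genes, where 1 UMI equals 406 CPM.

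Levels were also set side by side for dividing and other cells. At day 14, 56 CD8 cells had at least 2 UMIs of 6 cell division genes and 408 had fewer. Prf1 stood at 15.6 CPM in the dividing and 68.6 CPM in the other cells (log2 ratio -2.13, 95% interval -3.17 to -1.25). Fasl stood at 39.7 and 84.2 CPM and Nkg7 at 1327 and 2104.5, while Gzmb stood at 302 and 312 (-0.05, -0.27 to 0.18). At day 7 Prf1 again stood lower in the 33 dividing than in the 91 other CD8 cells, at 31.5 and 73.5 CPM. Gzmk stood at 56.7 and 171 CPM and Gzmb at 274 and 257. Gzma stood at 1485 CPM in the 20 dividing and 638 in the 22 other CD8 cells of day 3. At day 14 it stood lower in dividing cells, at 152 and 222 CPM. Klrd1 at day 3 stood at 30.8 and 185 CPM and Ctsw at 144 and 329, lower in dividing cells as at day 14. Dividing cells of day 3 held 6 Prf1 UMIs (30.8 CPM, 95% Poisson interval 11.3 to 67.1). The others held 0 (0 to 75.9 CPM), so day 3 gives no direction for Prf1. Median depth there was 7771 and 1998.5 UMIs. In CD4 cells of day 14, Ifng stood at 40.8 CPM in the 121 dividing and 119 in the 536 other cells, and Gzmb at 108 and 90.2. Dividing CD8 cells of day 14 were deeper, with a median of 6921 UMIs against 4768.5.

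Other genes of the cytotoxic pathway were read from fixed lists in the same edgeR fit. All 4 chemokines of effector lymphocytes were tested. Ccl4 (log2 2.57, SE 0.21, adjusted p = 0.00104), Ccl5 (1.75) and Xcl1 (2.75) were higher in CD8 than CD4 cells, and Ccl3 did not pass (0.75). Ccl3, Ccl4 and Xcl1 were higher in NK-marker than CD8 cells, by 2.11, 1.15 and 2.76, and all 4 were higher in NK-marker than CD4 cells. Ccl5 differed by -0.03 between NK-marker and CD8 cells (adjusted p = 0.986). These chemokines attract other immune cells.

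Of 12 tested killer receptors and adaptors, 4 were higher in CD8 than CD4 cells, 5 in NK-marker than CD8 cells and 7 in NK-marker than CD4 cells, and none was lower. The adaptors Tyrobp and Fcer1g, which carry signals for activating receptors, were higher in NK-marker than CD8 cells by 3.36 and 3.74 (both adjusted p = 4.30e-05). Hcst, the adaptor of NKG2D, and the receptor Cd226 did not pass in any contrast. Cd160 was higher in CD8 than CD4 cells by 5.99 (adjusted p = 6.92e-05); it was chosen for naming after its value was seen.

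Of 14 genes of granule loading and release, 1 was higher in CD8 than CD4 cells, 2 in NK-marker than CD8 cells and 3 in NK-marker than CD4 cells. The first was Cst7 (1.55), an inhibitor of cathepsins, named after its value was seen. Serpinb9, which protects killer cells from granzyme B, was higher in NK-marker than CD8 cells by 2.02 (adjusted p = 0.00763). Serpinb6b, named after its value was seen, was higher by 2.11. Srgn, Lamp1 and Cd63, general granule and lysosome genes, passed in no contrast, with CD8 to CD4 differences from -0.28 to 0.13.

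Of 2 tested other granzymes, Gzmm was higher in CD8 than CD4 cells (6.06, adjusted p = 0.0262) and Gzmc in NK-marker than CD8 cells (5.32, adjusted p = 0.0218). Of 9 transcription factors, 1 was higher in CD8 than CD4 cells, Eomes (4.49, adjusted p = 0.0426, named after its value was seen). Id2, Runx3 and Stat4 did not pass there, with differences of -0.13, 0.51 and 0.15. Bhlhe40 alone was higher in NK-marker than CD8 cells (1.34, adjusted p = 0.0417). Of 5 tissue residency genes, Cxcr6 and Itgae were lower in NK-marker than CD8 cells, with log2 differences of -2.93 and -4.05. Cxcr6 was also lower in NK-marker than CD4 cells (-2.79), and none of the 5 passed between CD8 and CD4 cells. Itgae was named after its value was seen. Of 5 death ligands and cytokines, Il17a was lower in CD8 than CD4 cells (-2.14, adjusted p = 0.0432) and in NK-marker than CD4 cells. Il17a had 0 UMIs in both T cell classes at day 7, and at day 14 it stood at 38.9 CPM in CD8 and 175 CPM in CD4 cells. Of 5 genes that encode partners on other cells, Ifngr1 was higher in NK-marker than CD8 cells (0.96, adjusted p = 0.0447). None of 6 cell division genes passed in any contrast, nor did any of 7 naive and memory or 5 partner genes between CD8 and CD4 cells.

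Across 52 sums of gated classes and of clusters of other cell types, each gene was set against 10252 others by Pearson's r of log2(CPM + 10). A sum needed at least 50 cells, so no NK-marker sum, the largest of 41 cells, was among them. Of the CD8 and CD4 sums, only those of days 7 and 14 reached this size. Gzmk and Fasl were each other's most similar gene (r = 0.990), as were Klrd1 and Klrk1 (r = 0.966). The gene most like Gzma was Samd3 (r = 0.985) and the one most like Gzmb was Cd226 (r = 0.992). Ifng was most like Tbx21 (r = 0.986), the gene of the transcription factor T-bet, and Prf1 most like Xcl1 (r = 0.949). The sums share libraries, and most hold almost none of these RNAs, so the values describe a pattern of lymphocyte against other cells.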

How the data were processed

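The 5 mouse cortex libraries, 1 per condition, were analysed from the deposited gene by barcode count matrices, in which the authors counted UMIs per gene with Cell Ranger 4.0.0, per the file headers. Further names, given without a role per the submitters' processing notes, are the builds mm10 and GRCm38 and the tools Seurat 3.2.0 and STAR 2.5.37. Positions are from a GENCODE annotation of GRCm38. The 10 genes and all gene lists were chosen with earlier results of these data known, so no count of them is independent evidence of a pattern.

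Kept cells had at least 500 UMIs, 200 genes and at most 20% mitochondrial UMIs. Scrublet marked 3.16% to 8.52% of barcodes as doublets, which were removed, leaving 9506 to 11959 cells a library. At day 7, 12.7% of barcodes were above the mitochondrial limit. Median depth per barcode was 773 UMIs in sham and 8558 at day 14. Gated cells had at most 0.5% of UMIs from C1qa, C1qb, C1qc, Csf1r and Trem2. CD3-positive cells outside the gates formed a remainder. Clusters (32, of which 29 could be named) came from Leiden clustering in scanpy 1.11.5, with 2000 variable genes and 30 components.

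UMIs were summed per class and library. CPM intervals are exact Poisson, shares exact Clopper-Pearson and ratios exact conditional binomial, all at 95% and for counting error only. Sums of at least 20 cells entered edgeR 4.0.16 (TMM, filterByExpr, quasi-likelihood test, library as block, Benjamini-Hochberg over all genes). The script was tested on simulated counts. Ratios between days used classes of at least 50 cells, and at least 20 for NK-marker cells and day 3, a choice made after the data were seen. For a share of cells compared across depths, each cell was thinned to 500 UMIs.

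All 10 genes are named. From each list the 4 genes with the highest mean CPM could be named, and others are marked as chosen after their values were seen. Some list and marker results are not reported here. Alternatives covered DESeq2 1.42.0, RLE scaling, filters, gates, doublets, the library block, thinning and per-cell means.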

Additional observations from a re-analysis of the deposited data

Results flagged for a closer look

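Genes were picked out here because their ratio of day 14 over day 7 was above 0 on the log2 scale in 1 class and below 0 in another, each with a counting interval that excludes 0. The difference between classes was not tested, since each day is 1 library. Between CD8 and CD4 cells this held for 3 of the 10 genes. Gzmk had log2 ratios of 0.77 and -1.46, a difference of 2.22. Gzmb had 0.23 and -0.66, a difference of 0.89. Nkg7 had 0.27 and -0.45, a difference of 0.73. For Gzmb, the share of cells with a UMI was lower at day 14 in both classes.

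Between CD8 and NK-marker cells it held for 2 genes. Gzma had log2 ratios of 0.90 and -0.74, a difference of 1.64. Nkg7 had 0.27 and -0.68, a difference of 0.96. Both NK-marker ratios changed sign when only cells of the T cell cluster were used, to 0.18 for Gzma and 0.02 for Nkg7. That choice leaves out 9 cells of day 14 and 1 of day 7. In CD8 cells the Gzma level rests on few cells, and its counting interval does not cover differences between cells.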

How the results depend on the processing

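Of 310 fold changes of the 10 genes under alternatives, 272 kept their direction and side of the threshold, 23 newly passed, 9 no longer passed and 6 changed sign. Without the library block, 1 gene was called between CD8 and CD4 cells and 2 between NK-marker and CD8 cells, and over all genes the higher and lower calls were 4 and 2 (CD8 to CD4), 21 and 21 (NK-marker to CD8), and 42 and 22 (NK-marker to CD4), against 25 and 19, 90 and 47, and 101 and 73. Gating inside the T cell cluster with at least 10 cells gave 7 genes between NK-marker and CD8 cells and 9 in each other contrast, and over all genes 103 and 121, 175 and 173, and 215 and 200. No expression filter gave 6 of the 10 genes between NK-marker and CD8 cells, 9 in each other contrast, and over all genes 96 and 135, 232 and 244, and 191 and 260. Requiring 3 NK genes gave 45 and 40 between CD8 and CD4 cells. The near-zero Ifng difference between CD8 and CD4 cells became 0.0067 without the block and 0.11 without the myeloid limit. That of Nkg7 between NK-marker and CD8 cells became 0.0018 without the block, 0.23 with day 3, 0.059 inside the cluster and 0.23 with 3 NK genes. In NK-marker cells the median ratio of day 14 over day 7 became 0.28 with 3 NK genes and 0.58 inside the cluster; Gzma became 0.18 inside it, and Nkg7 0.0049 with 3 NK genes and 0.018 inside. The causes were not tested. The CD4 share at day 14 was 6.33% without the myeloid limit and 5.07% inside the cluster. Averaging CPM over cells gave medians over the 10 genes at day 14 of 252 in CD8, 44.8 in CD4 and 730.0 in NK-marker cells, against 212, 56.7 and 527. Median shares of cells with a UMI depend on depth by construction. At 500 UMIs they were 8.87% and 8.51% (CD8, days 7 and 14), 3.85% and 2.36% (CD4), and 17.5% and 26.8% (NK-marker). Without thinning they were 46.4%, 34.4%, 20.3%, 15.7%, 70.0% and 47.6% in the same order, and at 1000 UMIs 14.5% in CD8 and 4.44% in CD4 cells of day 14. By single library, the median class ratio was 1.26 to 2.02 (CD8 to CD4), 0.54 to 1.40 (NK-marker to CD8) and 2.03 to 2.06 (NK-marker to CD4). No fit was run on a single library, which leaves no residual degrees of freedom, nor with sums of at least 50 cells, which no library had for every class. No paired analysis was possible because each condition has 1 library. Counts of a few UMIs limit Gzmk in NK-marker cells and Prf1 and Gzma in CD4 cells.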

Other observations

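Genes of tissue residency, which keep T cells in a tissue, stood higher at day 14 than at day 7 in T cells, with 1 library a day and no test. In CD8 cells the integrin gene Itgae stood at 5.80 CPM at day 7 (5 UMIs) and 70.2 at day 14 (202 UMIs). In CD4 cells the chemokine receptor gene Cxcr6 stood at 298 and 627 CPM and the signalling regulator Rgs1 at 486 and 1080. Il7r, the receptor for a survival cytokine, stood at 67.3 and 222 CPM in CD8 cells and at 134 and 409.6 in CD4 cells. Klf2, a factor that favours circulation, stood at 415 and 105 CPM in CD8 cells and at 416 and 94.1 in CD4 cells. Itgae was named after its values were seen.

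Klrd1 was detected in microglia of the sham library, where 48 of 4499 cells held 51 UMIs, or 13.8 CPM (95% Poisson interval 10.3 to 18.2). Microglia of the 4 injured libraries held 0.249 to 1.83 CPM. Klrk1 had 0 UMIs in the sham microglia, and the other 8 genes had 0 to 3 UMIs.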
